A study of Mus musculus with 9 samples.

Results

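Translation initiation factors bring the ribosome to the start codon of an mRNA, and their transcripts were followed here together with those of the kinases and binding proteins that control them. In the deposited values, 56 gene symbols begin with Eif and a digit from 1 to 6 and are not named as pseudogenes. Of these, 52 reached 1 FPKM (a level scaled to transcript length and library size) in at least 3 of the 9 libraries, out of 11337 genes that did so in all. The cells were HL-1, an immortalised mouse atrial cardiomyocyte line kept in Claycomb medium, and all groups come from this single line. There were 3 libraries in each of 3 groups, all treated for 24 h: vehicle (0.1% DMSO), 5 µM ivermectin and 10 µM importazole. How much DMSO the compound groups received is not in the labels. Ivermectin is an antiparasitic drug that also inhibits nuclear import by importin α/β, and importazole blocks importin-β. The labels do not say whether the libraries of a group came from separate cultures, so the p-values reflect spread among these libraries alone, and that spread may be technical.

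Initiation begins when eIF2, bound to GTP and the initiator tRNA, joins the small ribosomal subunit together with eIF1, eIF1A, eIF3 and eIF5, and the eIF4F complex of cap-binding eIF4E, scaffold eIF4G and helicase eIF4A brings the mRNA. Stress kinases phosphorylate eIF2, which blocks its recycling by the exchange factor eIF2B, lowers general protein synthesis and favours translation of Atf4. The eIF4E-binding proteins, when not phosphorylated by the mTORC1 kinase, hold eIF4E away from eIF4G. These controls act on proteins, and the libraries report transcript levels only.

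The deposited values are FPKM without read numbers, which leaves library depth unknown. Summed FPKM ran from 365259 to 416748 per library, and Yam1, a single transcript, stood at 0 in both vehicle 2 and ivermectin 3 but took 5.86% to 10.43% of the sum in the other 7. All 10 cardiomyocyte markers examined passed the filter on low values, and they summed to 7634 to 8698 FPKM with vehicle, 6735 to 7266 FPKM with ivermectin, below every vehicle library, and 7261 to 7798 FPKM with importazole, overlapping vehicle. Of 8 fibroblast markers, Col1a1 and Ddr2 passed and 6 stayed below 1 FPKM in every library, and the list summed to 23.8 to 27.0 FPKM with vehicle, 37.0 to 39.0 FPKM with ivermectin and 34.8 to 37.1 FPKM with importazole. Of the endothelial markers, Kdr and Eng passed and Cdh5 and Tek were below 1 FPKM in every library, and the list of 5 summed to 10.3 to 11.2 FPKM with vehicle, 8.97 to 9.93 FPKM with ivermectin, again without overlap, and 9.79 to 11.4 FPKM with importazole. Of 3 macrophage markers, Cd68 passed and Ptprc and Csf1r stayed below 1 FPKM, with sums of 0.796 to 1.63 FPKM, 0.885 to 2.30 FPKM and 1.09 to 1.78 FPKM in the same order. The smooth muscle marker Myh11 was below 1 FPKM in every library. Acta2, Cnn1 and Tagln, the other 3 smooth muscle markers, passed, and that list of 4 summed to 1347 to 1404 FPKM with vehicle, 1158 to 1279 FPKM with ivermectin and 1173 to 1285 FPKM with importazole. The part of these shifts in the results that follow was not tested. In bulk libraries, fewer cells of a type and less RNA per cell cannot be told apart.

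In vehicle-treated cells the 52 initiation genes had a median level of 37.8 FPKM, against 10.07 FPKM over all genes tested, and 11 of them (21.2%) exceeded 100 FPKM, against 5.34% of all genes tested. The highest was Eif5a at 437 ± 19.6 FPKM (mean ± SD, n = 3, as throughout), whose hypusine-modified protein helps ribosomes through difficult stretches. Eif1, at 277 ± 19.4 FPKM, and Eif4a1, at 272 ± 1.69 FPKM, came next and differed by less than the spread of Eif1. The lowest gene that passed the filter was Eif4e3, a cap-binding relative of eIF4E, at 1.41 ± 0.227 FPKM. All 4 eIF2 kinases were among the 10 genes below 10 FPKM, from 2.95 ± 0.5297 FPKM for Eif2ak4 to 8.39 ± 0.0855 FPKM for Eif2ak1. The 4 symbols that did not pass the filter were Eif4ebp3, with a highest value of 0.214 FPKM, the Y-linked eIF2 subunit Eif2s3y (0.113 FPKM), Eif4e1b (0.08599 FPKM) and Eif2c5, an older name from the Argonaute family that the rule also takes in (0.0106 FPKM).

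**Figure D1:**
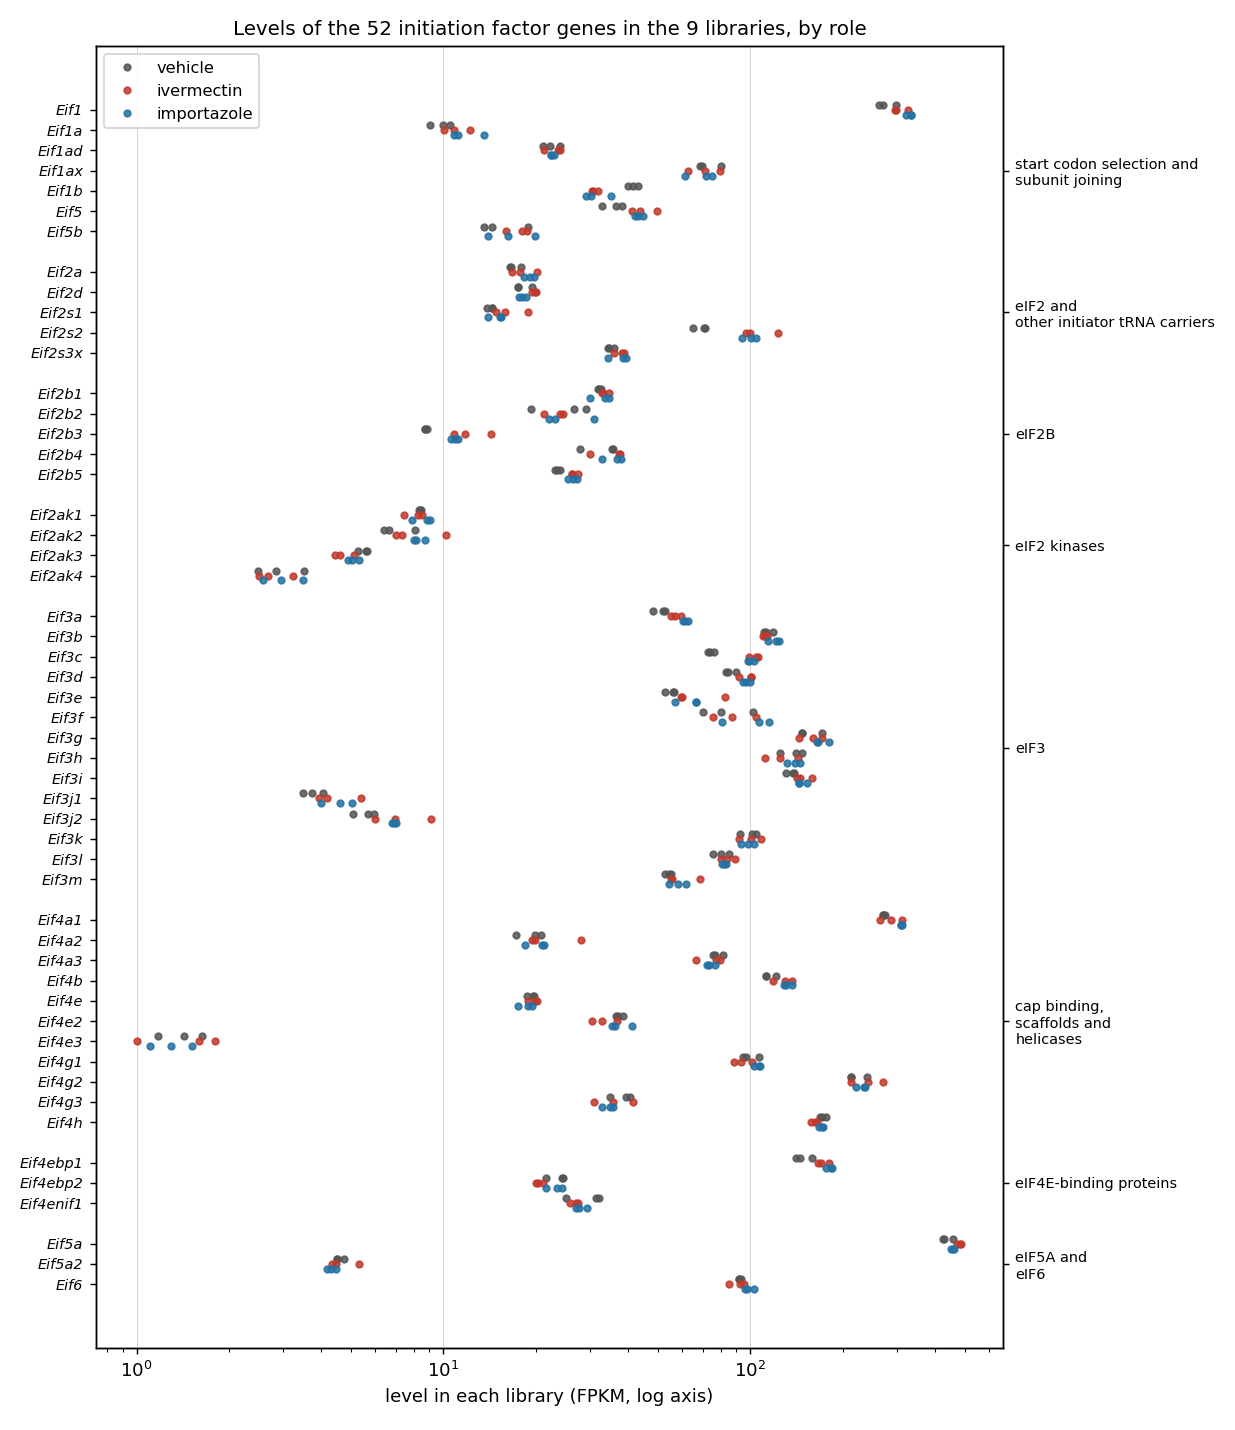
Levels of the 52 initiation genes in each of the 9 libraries, in FPKM on a log axis, with a row for each gene and points coloured by treatment. Vehicle means ran from 1.41 FPKM (Eif4e3) to 437 FPKM (Eif5a), with a median of 37.8 FPKM.

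With ivermectin, set against vehicle, the transcripts of an eIF2 subunit (Eif2s2), an eIF3 subunit (Eif3c) and an eIF2B subunit (Eif2b3) rose, and Eif1b fell. These 4 of 52 genes (7.69%) passed limma's test at a Benjamini-Hochberg adjusted p under 0.05, against 4.31% of all genes tested. Over all genes tested, 1.79% rose and 2.52% fell. An unadjusted p under 0.05 was found for 16 of the 52 (30.8%), against 20.7%. The largest difference was 0.61 (Eif2s2) on the log2(FPKM + 1) scale, which is used for all differences here and understates those of low genes. Over all genes tested the median difference was 0.01, with 53.3% above 0. That of the 52 genes was 0.08, with 36 above 0 (69.2%). In 15 genes (28.8%) every ivermectin library lay above every vehicle library, against 12.4% of all genes tested, and in 4 genes (7.69%) every one lay below, against 12.2%. Ivermectin 3 held the highest of the 9 values for 18 of the 52 genes, a count not made over all genes tested. Without ivermectin 3 the median difference was 0.03, and -8.1e-05 over all genes tested. Without vehicle 2 the number of genes that passed was 2 (Eif2s2 and Eif3c), and without the pair of libraries listing Yam1 at 0 it was 2 (the same pair), with a median difference of 0.02.

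With importazole, Eif2s2, Eif3c, Eif3a (another eIF3 subunit) and Eif4ebp1 (an eIF4E-binding protein) rose against vehicle, and Eif1b fell. These 5 of 52 genes made up 9.62%, against 2.26% of all genes tested, of which 1.69% rose and 0.565% fell. An unadjusted p under 0.05 was found for 14 of the 52 (26.9%), against 15.8%. Both comparisons use the same 3 vehicle libraries, so they are not independent of each other. Over all genes tested the median difference was 0.04, with 61.4% above 0. That of the 52 genes was 0.08, with 39 above 0 (75%). After quantile normalization the median of the 52 genes was 0.04 with 30 above 0, and after median-of-ratios scaling 0.03 with 31 above 0. The median over all genes tested was then -0.005 and -0.001. Every importazole library lay above every vehicle library in 17 genes (32.7%), against 16.5% of all genes tested, and below in 2 genes (3.85%), against 7.07%. The number that passed was 1 (Eif3c) without vehicle 2 or without importazole 3, 2 without vehicle 3, importazole 1 or importazole 2, 3 without vehicle 1, ivermectin 1 or ivermectin 2, and 2 (Eif2s2 and Eif3c) without the pair of libraries listing Yam1 at 0.

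**Figure D2:**
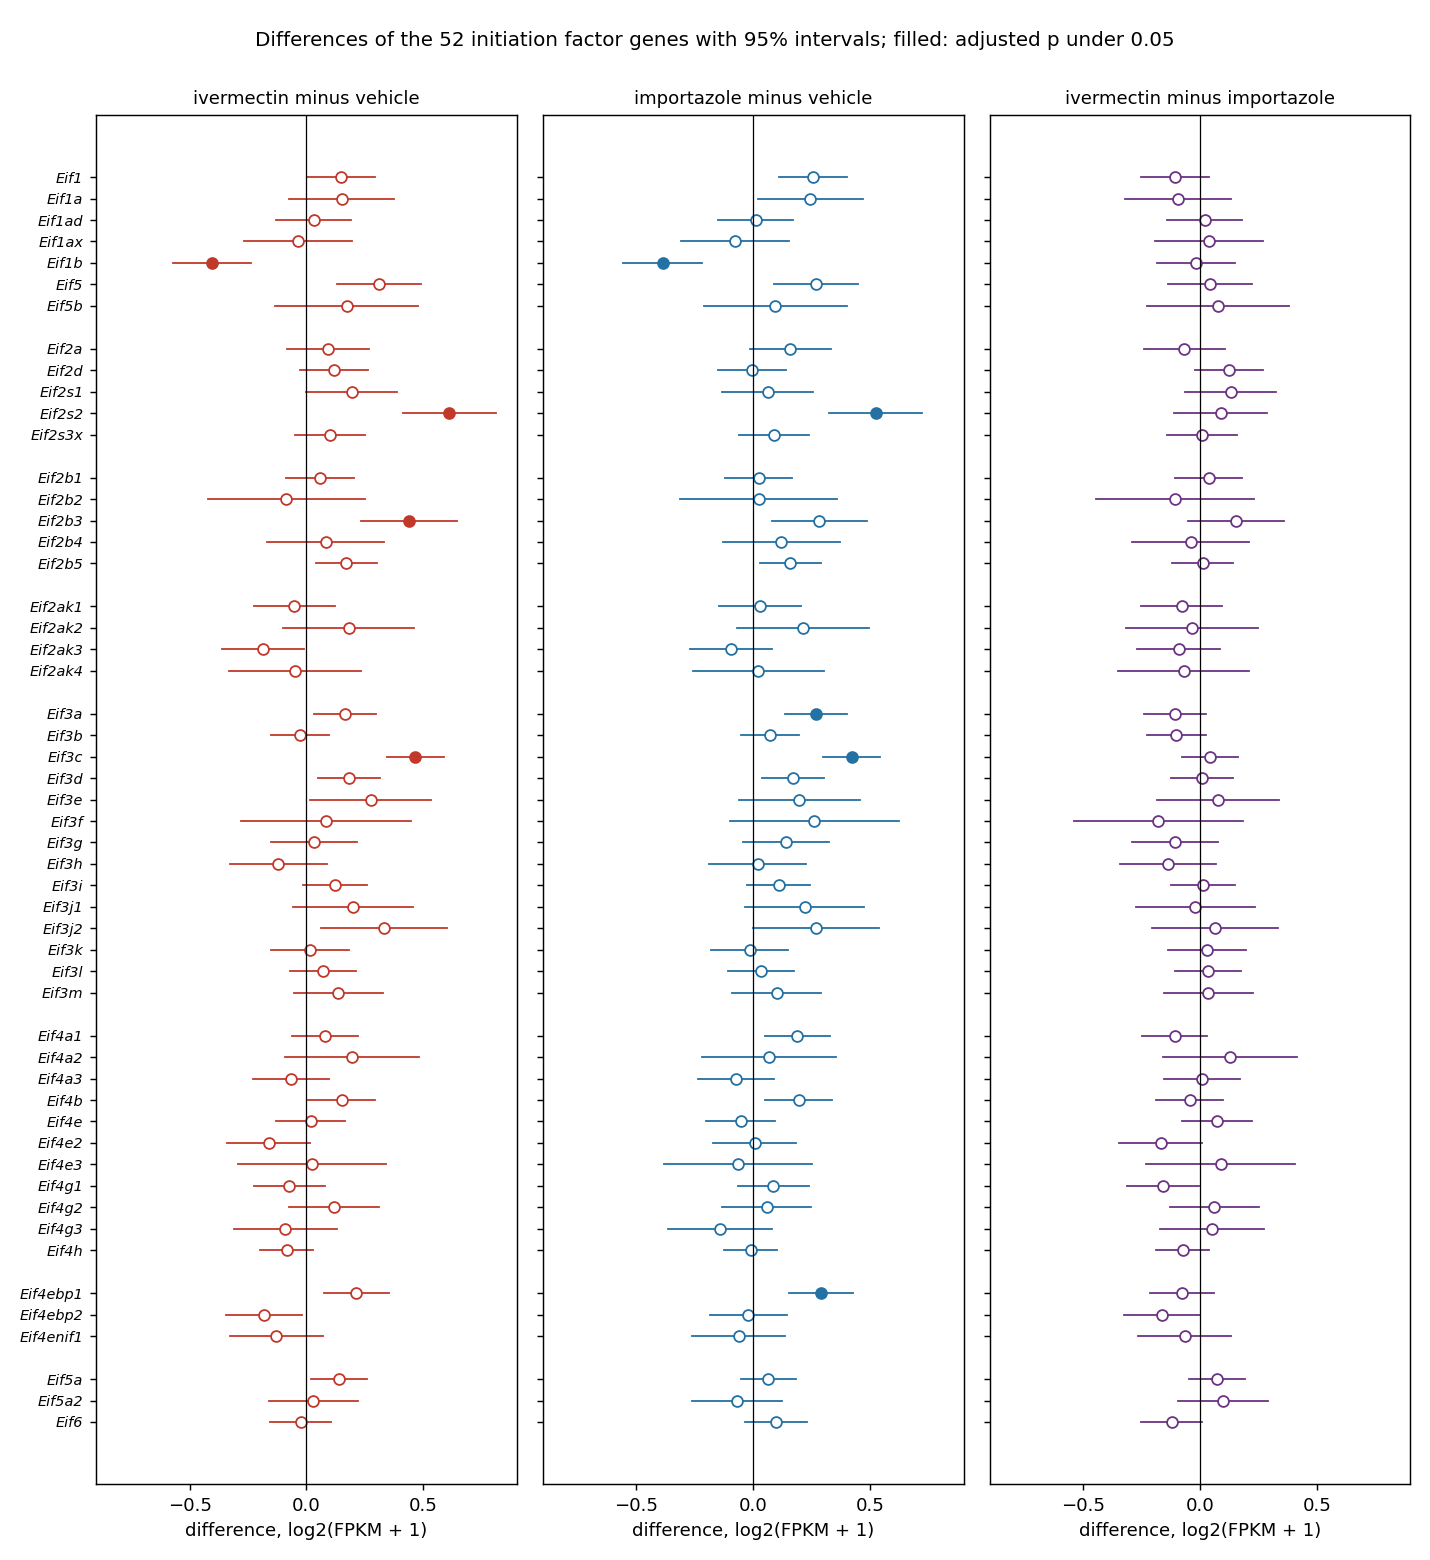
Differences between groups for the 52 genes in log2(FPKM + 1), with 95% intervals from limma, for ivermectin minus vehicle, importazole minus vehicle and ivermectin minus importazole. The marks for an adjusted p under 0.05 fall on 4 genes in the comparison of ivermectin with vehicle, 5 in that of importazole with vehicle and 0 between the compounds.

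As a share of summed FPKM without Yam1, the 52 genes together took 1.002%, 1.01% and 0.997% in vehicle 1, 2 and 3. They took 1.06%, 1.08% and 1.04% in ivermectin 1, 2 and 3, and 1.06%, 1.05% and 1.07% in importazole 1, 2 and 3. The vehicle libraries were the 3 lowest.

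Among the 7 genes of start codon selection and subunit joining, Eif1b fell with each compound and no other gene passed. Eif1b encodes a close relative of eIF1, the factor that keeps the scanning ribosome from accepting wrong start codons, and lies on GRCm38 chromosome 9, 120492232 to 120495330, plus strand. In libraries 1, 2 and 3 of each group, the order used throughout, Eif1b stood at 41.4, 43.1 and 39.9 FPKM with vehicle, at 30.5, 30.8 and 31.9 FPKM with ivermectin, and at 35.2, 30.4 and 29.1 FPKM with importazole. Every treated library lay below every vehicle library. The difference from vehicle was -0.40 ± 0.076 (SE) with ivermectin (limma adjusted p = 0.0147) and -0.39 ± 0.076 with importazole (limma adjusted p = 0.0248). The ivermectin call ended when vehicle 2 was left out (limma adjusted p = 0.0637), and with no filter and without the pair of libraries listing Yam1 at 0 (limma adjusted p from 0.00796 to 0.1 over 20 alternatives). The importazole call ended when vehicle 1, 2 or 3 or importazole 2 or 3 was left out (limma adjusted p from 0.0569 to 0.109), and with no filter and without the pair of libraries listing Yam1 at 0 (limma adjusted p from 0.0104 to 0.109 over 20 alternatives).

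The main eIF1 gene, Eif1, stood at 270.1, 299 and 262 FPKM with vehicle, at 297, 327 and 298 FPKM with ivermectin, and at 322, 335 and 335 FPKM with importazole. Its importazole libraries lay above its vehicle libraries, and its ivermectin libraries overlapped them. The differences from vehicle of 0.15 with ivermectin and 0.26 with importazole did not pass (limma adjusted p = 0.236 and 0.0832). Eif5, which encodes the protein that triggers GTP hydrolysis by eIF2 at the start codon, stood at 36.4, 32.9 and 38.3 FPKM with vehicle, at 41.2, 43.6 and 49.5 FPKM with ivermectin, and at 43.1, 41.9 and 44.7 FPKM with importazole. No treated value reached down to a vehicle value. The differences of 0.31 and 0.27 did not pass (limma adjusted p = 0.0596 and 0.134). The ivermectin difference did pass with a 5 FPKM filter, quantile normalization or median-of-ratios scaling (limma adjusted p from 0.0342 to 0.312 over 20 alternatives). Eif1a, Eif1ax and Eif1ad, of eIF1A type, and the GTPase gene Eif5b, which joins the subunits, had differences from vehicle of -0.08 to 0.24 and did not pass. The exons of Eif5b overlap those of Rev1 on the other strand by 1643 bases, and the sources used here do not say whether counting used strand.

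Of the 5 genes for eIF2 and other carriers of initiator tRNA, Eif2s2 rose with each compound and the other 4 did not pass. Eif2s2 encodes eIF2β, the subunit that eIF5 and eIF2B bind, and lies on chromosome 2, 154871410 to 154892935, minus strand. Its transcript stood at 70.5, 64.9 and 71.2 FPKM with vehicle, at 96.5, 99.5 and 123 FPKM with ivermectin, and at 100.3, 93.7 and 104 FPKM with importazole. All 6 treated libraries lay above all vehicle libraries, with ivermectin 3 the highest. The difference was 0.61 ± 0.090 (SE) with ivermectin (limma adjusted p = 0.00333), and it passed in all 20 alternatives, with differences of 0.46 to 0.68. With importazole it was 0.52 ± 0.090 (limma adjusted p = 0.0118). That call ended when vehicle 2 or importazole 1 or 3 was left out (limma adjusted p from 0.0592 to 0.0646), and with no filter (limma adjusted p from 0.00152 to 0.0646 over 20 alternatives). Of the 50-base stretches of its annotated transcripts, 10.2% also stand in transcripts of other genes, which could share reads.

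The other eIF2 subunits had smaller differences. Eif2s1, which encodes eIF2α, the subunit that the stress kinases phosphorylate, was at 14.4, 14.4 and 13.9 FPKM with vehicle, at 14.8, 15.9 and 18.8 FPKM with ivermectin, and at 15.4, 14.01 and 15.3 FPKM with importazole. The ivermectin libraries lay above those with vehicle, and the importazole libraries overlapped them. The differences of 0.19 and 0.06 did not pass (limma adjusted p = 0.242 and 0.787). Eif2s3x, which encodes the GTP-binding subunit eIF2γ, differed from vehicle by 0.10 and 0.09 and did not pass (limma adjusted p = 0.438 and 0.564). Of its 50-base stretches, 34.6% also stand in transcripts of other genes. Eif2a and Eif2d, which encode other proteins able to bring initiator tRNA to the ribosome, had differences from vehicle of at most 0.16 and did not pass.

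Of the 5 genes of eIF2B, the complex that reloads eIF2 with GTP, Eif2b3 rose with ivermectin and 0 passed with importazole. Eif2b3 encodes the γ subunit, which pairs with the catalytic ε subunit, and lies on chromosome 4, 117019402 to 117087306, plus strand. It stood at 8.73, 8.84 and 8.69 FPKM with vehicle, at 10.8, 11.8 and 14.3 FPKM with ivermectin, and at 11.1, 10.5 and 10.9 FPKM with importazole. All vehicle libraries lay below all treated ones. The difference was 0.44 ± 0.093 (SE) with ivermectin (limma adjusted p = 0.0244) and 0.28 ± 0.093 with importazole (limma adjusted p = 0.16). The ivermectin call ended when vehicle 1, 2 or 3 or ivermectin 2 or 3 was left out (limma adjusted p from 0.0512 to 0.0747), and with no filter, in the fit to the 6 libraries compared and without the pair of libraries listing Yam1 at 0 (limma adjusted p from 0.0164 to 0.113 over 20 alternatives). Eif2b5, the catalytic ε subunit, was at 23.1, 23.97 and 23.5 FPKM with vehicle, at 26.2, 26.2 and 27.3 FPKM with ivermectin, and at 25.5, 27.2 and 26.5 FPKM with importazole. Its treated libraries all lay above its vehicle libraries, but the differences of 0.17 and 0.16 did not pass (limma adjusted p = 0.135 and 0.217). Eif2b2 had the widest spread among vehicle libraries of all 52 genes, at 29.1, 26.6 and 19.3 FPKM, a coefficient of variation of 20.3%.

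0 of the 4 eIF2 kinase genes passed in any comparison, at an adjusted p under 0.05 by limma. Over all genes tested, 4.31% passed with ivermectin against vehicle, 2.26% with importazole against vehicle and 3.42% between the compounds. Eif2ak4 encodes GCN2, which senses uncharged tRNA, and was at 3.52, 2.84 and 2.48 FPKM with vehicle, at 3.24, 2.501 and 2.68 FPKM with ivermectin, and at 3.47, 2.58 and 2.95 FPKM with importazole. The groups overlapped, and the 95% interval of the difference from vehicle was -0.33 to 0.23 with ivermectin and -0.26 to 0.30 with importazole. Eif2ak3 encodes PERK, which senses unfolded protein in the endoplasmic reticulum, and was at 5.26, 5.61 and 5.604 FPKM with vehicle, at 5.100, 4.59 and 4.43 FPKM with ivermectin, and at 5.299, 5.04 and 4.89 FPKM with importazole. Its ivermectin libraries lay below all vehicle libraries, a difference of -0.19 that did not pass (limma adjusted p = 0.219), and with importazole the groups overlapped. Eif2ak2 encodes PKR, which binds double-stranded RNA, and was at 8.06, 6.41 and 6.62 FPKM with vehicle, at 7.33, 7.003 and 10.2 FPKM with ivermectin, and at 8.01, 8.14 and 8.69 FPKM with importazole. These groups overlapped, and ivermectin 3 was the highest library. Eif2ak1 encodes HRI, which responds to haem, and was at 8.46, 8.295 and 8.41 FPKM with vehicle, at 8.51, 8.25 and 7.46 FPKM with ivermectin, and at 7.91, 9.02 and 8.82 FPKM with importazole. Those values overlapped too, and its exons overlap those of Aimp2 on the other strand by 487 bases.

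eIF3 is a complex of many subunits that bridges the small ribosomal subunit and eIF4F, and 14 of its genes were measured. Eif3c rose with each compound, Eif3a rose with importazole, and the others did not pass. The median difference of the 14 from vehicle was 0.13 with ivermectin, with 12 above 0 (85.7%). With importazole it was 0.16, with 13 above 0 (92.9%). Over all genes tested the medians were 0.01 and 0.04, with 53.3% and 61.4% above 0. Eif3c and Eif3a both encode core scaffold subunits.

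Eif3c lies on chromosome 7, 126546455 to 126566411, minus strand. It stood at 76.3, 74.1 and 72.5 FPKM with vehicle, at 98.7, 106 and 104 FPKM with ivermectin, and at 103, 99.2 and 97.9 FPKM with importazole. The lowest treated library was above the highest vehicle library. The difference was 0.46 ± 0.055 (SE) with ivermectin (limma adjusted p = 0.000702) and 0.42 ± 0.055 with importazole (limma adjusted p = 0.00216), the smallest p of the 52 genes in each comparison. Both calls held in all 20 alternatives, with differences of 0.44 to 0.49 and 0.37 to 0.44.

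Eif3a lies on chromosome 19, 60761117 to 60790658, minus strand. It stood at 52.7, 48.01 and 51.8 FPKM with vehicle, at 54.95, 59.4 and 56.8 FPKM with ivermectin, and at 60.4, 61.1 and 62.9 FPKM with importazole. The groups followed each other without overlap, vehicle lowest and importazole highest. The difference from vehicle was 0.27 ± 0.060 (SE) with importazole (limma adjusted p = 0.0468) and 0.16 ± 0.060 with ivermectin (limma adjusted p = 0.158). The importazole call held in 6 of 20 alternatives. It ended when vehicle 1, 2 or 3, ivermectin 1 or 2, or importazole 1, 2 or 3 was left out (limma adjusted p from 0.0559 to 0.189), and with no filter, with quantile normalization, with median-of-ratios scaling, in the fit to the 6 libraries compared and without the pair of libraries listing Yam1 at 0 (limma adjusted p from 0.0356 to 0.189 over 20 alternatives).

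**Figure D3:**
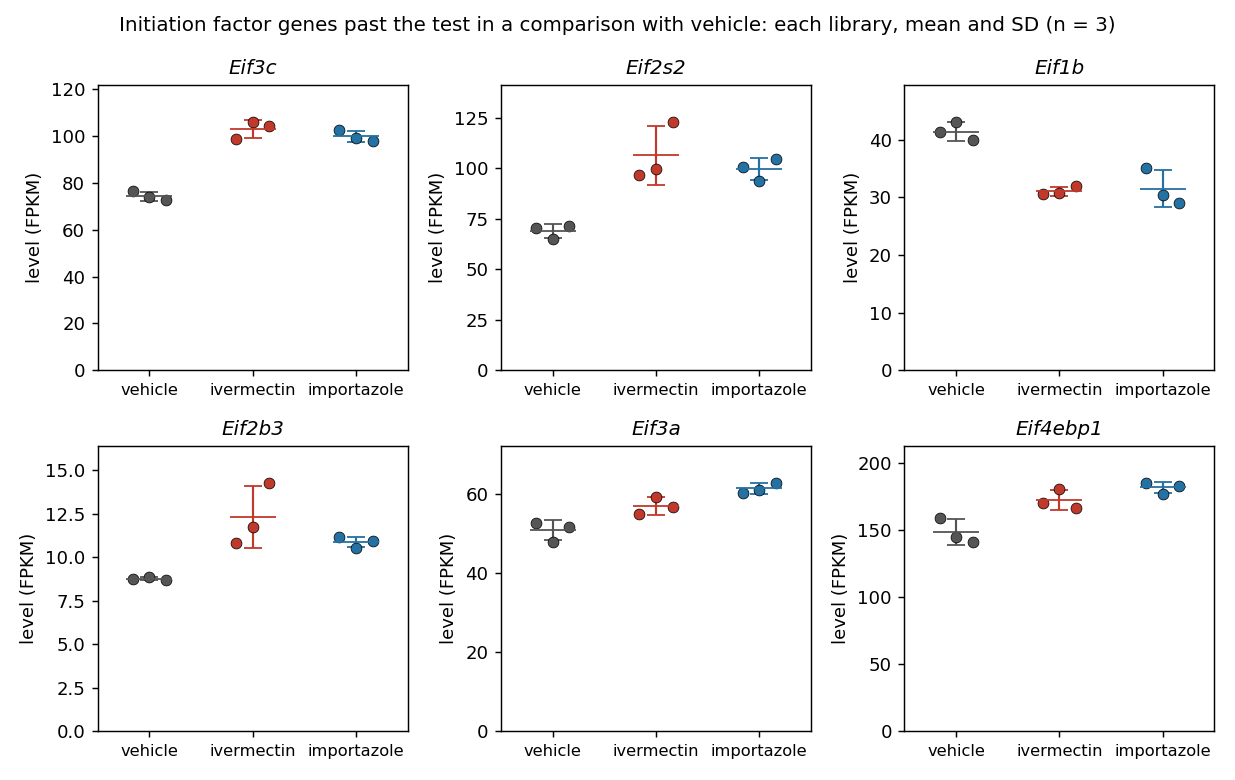
Levels in FPKM of the 6 genes that passed the test against vehicle with at least 1 compound, with a point for each library and the mean and SD of each group (n = 3). Eif3c, Eif2s2, Eif2b3, Eif3a and Eif4ebp1 lie higher, and Eif1b lower, in every treated library than in every vehicle library.

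The promoters of Eif3c, Eif2s2 and Eif3a are shown because these genes rose with importazole, and they are those of the 4 such genes that have a RefSeq window, which Eif4ebp1 does not. The bases are those before the RefSeq start on GRCm38.p6, read 5′ to 3′ on the gene's strand, less any that GENCODE M21 places inside the gene. Capitals mark matches on either strand to GGGCGG, the GC box bound by Sp1-type factors. The windows, all on the minus strand, are chr7:126566412-126566616 for Eif3c, chr2:154892936-154893156 for Eif2s2 and chr19:60790694-60790943 for Eif3a.
Eif3c: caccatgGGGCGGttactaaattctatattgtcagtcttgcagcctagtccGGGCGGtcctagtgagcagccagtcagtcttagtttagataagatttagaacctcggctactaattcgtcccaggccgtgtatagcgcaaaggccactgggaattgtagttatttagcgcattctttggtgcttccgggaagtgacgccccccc
Eif2s2: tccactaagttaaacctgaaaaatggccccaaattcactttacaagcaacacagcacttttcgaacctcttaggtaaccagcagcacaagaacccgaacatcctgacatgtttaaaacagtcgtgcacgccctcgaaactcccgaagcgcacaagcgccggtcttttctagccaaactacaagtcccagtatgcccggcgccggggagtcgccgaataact
Eif3a: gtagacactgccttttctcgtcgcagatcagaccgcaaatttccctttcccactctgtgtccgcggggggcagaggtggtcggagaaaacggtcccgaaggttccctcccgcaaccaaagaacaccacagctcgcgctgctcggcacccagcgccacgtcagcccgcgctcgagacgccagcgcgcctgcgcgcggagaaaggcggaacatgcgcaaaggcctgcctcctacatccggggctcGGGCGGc
These stretches hold 2 matches for Eif3c, 0 for Eif2s2 and 1 for Eif3a, and are 50.7%, 50.2% and 65.6% G and C. 0 of the 3 hold TGATGNAA, the element bound by ATF4 with C/EBP partners, or CACGTG, the E-box bound by MYC-type factors, on either strand. No motif fits inside another, though neighbouring matches may share end bases. Over the full 250 bases before the start, RefSeq windows were at hand for 42 of the 52 genes and for 8395 of all genes tested. TGATGNAA stood in 1 of the 42 genes (Eif2s3x, 2.38%), against 2.19% of the 8395. CACGTG stood in 9 (21.4%), against 10.3%, and these were Eif1b, Eif3f, Eif3k, Eif4a1, Eif4e, Eif4g1, Eif4h, Eif5a and Eif5a2. The RefSeq window of Eif1b lies wholly inside the gene as GENCODE M21 places it, so its match is not upstream of the GENCODE start. GGGCGG stood in 31 (73.8%), against 66.8%. A match describes the letters only.

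The remaining eIF3 genes had smaller or more variable differences. Eif3e was at 55.9, 52.6 and 56.5 FPKM with vehicle, at 59.6, 59.9 and 82.9 FPKM with ivermectin, and at 66.5, 56.9 and 66.7 FPKM with importazole. The ivermectin 3 value stood apart, and in the same library the pseudogene Eif3s6-ps2, which shares sequence with Eif3e, was at 22.1 FPKM against 6.25 to 9.89 FPKM in the other 8. The Eif3e difference of 0.27 with ivermectin did not pass (limma adjusted p = 0.219). Eif3d, which encodes a subunit that can bind the cap itself, was at 85.996 ± 3.53 FPKM with vehicle, 97.6 ± 4.78 FPKM with ivermectin and 96.9 ± 2.83 FPKM with importazole and did not pass (limma adjusted p = 0.123 and 0.189), though its ivermectin difference passed with quantile normalization. Eif3f was at 102, 80.1 and 70.2 FPKM with vehicle, at 86.996, 104 and 75.3 FPKM with ivermectin, and at 80.6, 115 and 107 FPKM with importazole, with all groups overlapping. Eif3j1 and Eif3j2 share sequence, so the split of reads between them is uncertain. Transcripts of other genes hold 91.9% of the 50-base stretches of Eif3j2 and 36.9% of those of Eif3j1.

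0 of the 11 genes of cap binding, scaffolds and helicases passed in any comparison (limma, adjusted p under 0.05), with median differences from vehicle of 0.02 with ivermectin and 0.01 with importazole. The shares that passed over all genes tested were 4.31% with ivermectin, 2.26% with importazole and 3.42% between the compounds. Eif4e, the cap-binding protein gene, was at 18.7, 19.8 and 19.5 FPKM with vehicle, at 18.8, 19.9 and 20.1 FPKM with ivermectin, and at 19.5, 17.5 and 18.9 FPKM with importazole. The groups overlapped, and the 95% interval of its difference from vehicle was -0.13 to 0.17 with ivermectin and -0.20 to 0.09 with importazole. Eif4g1, the main scaffold, was at 107, 97.03 and 94.4 FPKM with vehicle, at 88.5, 102 and 93.4 FPKM with ivermectin, and at 103, 106 and 108 FPKM with importazole. Its ivermectin libraries lay below its importazole libraries. Eif4e2, which encodes a cap-binding repressor, was at 38.3, 37.2 and 36.6 FPKM with vehicle, at 32.8, 36.7 and 30.6 FPKM with ivermectin, and at 36.3, 41.05 and 35.5 FPKM with importazole, with overlapping groups.

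Eif4a1, the main helicase gene, was at 274, 271 and 271 FPKM with vehicle, at 266, 288 and 313 FPKM with ivermectin, and at 309, 312 and 311 FPKM with importazole. The importazole libraries lay above the vehicle libraries, but the difference of 0.19 did not pass (limma adjusted p = 0.17). Of its 50-base stretches, 28.4% stand in other transcripts, among them the pseudogene Eif4a-ps4, which was listed at 87.5 to 115 FPKM. Eif4a2, the second helicase gene, was at 20.8, 17.2 and 19.8 FPKM with vehicle, at 19.5, 19.9 and 27.97 FPKM with ivermectin, and at 21.3, 18.4 and 21.001 FPKM with importazole. Those groups overlapped, and ivermectin 3 was again the highest library. Eif4b, a helicase cofactor, had differences of 0.15 and 0.19 that did not pass (limma adjusted p = 0.224 and 0.169).

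Of the 3 genes for eIF4E-binding proteins, Eif4ebp1 rose with importazole and no other passed. The gene lies on chromosome 8, 27260329 to 27276674, plus strand, and is also known as a target of the stress factor ATF4. It stood at 159, 145 and 141 FPKM with vehicle, at 170.1, 180.2 and 166 FPKM with ivermectin, and at 185, 177 and 183 FPKM with importazole. All treated libraries lay above all vehicle libraries. The difference was 0.29 ± 0.062 (SE) with importazole (limma adjusted p = 0.0394) and 0.21 ± 0.062 with ivermectin (limma adjusted p = 0.0885). The importazole call held in 10 of 20 alternatives. It ended when vehicle 2 or 3, ivermectin 1 or 2, or importazole 1, 2 or 3 was left out (limma adjusted p from 0.0518 to 0.152), and with no filter and without the pair of libraries listing Yam1 at 0 (limma adjusted p from 0.0272 to 0.152 over 20 alternatives). Eif4ebp2 was at 24.3, 24.5 and 21.5 FPKM with vehicle, at 20.3, 21.1 and 20.1 FPKM with ivermectin, and at 21.5, 24.3 and 23.4 FPKM with importazole. Its ivermectin libraries were the 3 lowest, but the difference from vehicle of -0.18 did not pass (limma adjusted p = 0.194). Eif4enif1, which encodes 4E-T, a shuttling protein that carries eIF4E into the nucleus, was at 31.5, 32.01 and 25.05 FPKM with vehicle, at 25.9, 27.4 and 26.99 FPKM with ivermectin, and at 27.6, 29.4 and 27.1 FPKM with importazole. Its groups overlapped, and it did not pass (limma adjusted p = 0.455 and 0.79).

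Eif5a, Eif5a2 and Eif6 did not pass in any comparison. Eif5a was at 459, 423 and 428 FPKM with vehicle, at 470.02, 488 and 482 FPKM with ivermectin, and at 459, 459 and 451 FPKM with importazole. The ivermectin libraries were the 3 highest, a difference from vehicle of 0.14 (limma adjusted p = 0.182). Eif6, whose protein keeps free large ribosomal subunits from joining small ones, was at 93.5, 91.6 and 91.96 FPKM with vehicle, at 85.3, 92.2 and 95.1 FPKM with ivermectin, and at 97.8, 95.98 and 103 FPKM with importazole. Its importazole libraries were the 3 highest, a difference from vehicle of 0.10 (limma adjusted p = 0.466).

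The direct comparison of ivermectin with importazole set different compounds at different doses side by side. Of the 52 genes 0 passed (limma), against 3.42% of all genes tested, of which 0.714% were higher and 2.71% lower with ivermectin. An unadjusted p under 0.05 was found for 1 gene, Eif4g1 (1.92%), against 19%. The difference of Eif4g1 was -0.16 (95% interval -0.31 to -0.01, limma adjusted p = 0.244). The count stayed at 0 in all 20 alternatives. The 95% interval of the difference lay within ±0.5 for 51 of the 52 genes, and the exception was Eif3f (-0.54 to 0.18). That bound is wide, as only 1 of the 52 genes differed from vehicle by more than 0.5 with each compound. For the genes that passed against vehicle, the difference of ivermectin from importazole was 0.04 for Eif3c (95% interval -0.08 to 0.16), 0.09 for Eif2s2 (-0.11 to 0.29) and -0.02 for Eif1b (-0.18 to 0.15). It was 0.15 for Eif2b3 (-0.05 to 0.36), -0.11 for Eif3a (-0.24 to 0.03) and -0.08 for Eif4ebp1 (-0.21 to 0.06). The largest differences were those of Eif3f (-0.18), Eif4e2 (-0.17) and Eif4ebp2 (-0.16), and these did not pass. Groups did not overlap in 6 genes lower with ivermectin, Eif3a, Eif3b, Eif4ebp2, Eif4g1, Eif4h and Eif6 (11.5%, against 16.1% of all genes tested). They did not overlap in 2 genes higher with it, Eif2d and Eif5a (3.85%, against 8.04%).

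Other genes around initiation were examined as 5 lists. In the list of other eIF2 regulators, which holds the phosphatase subunits Ppp1r15a and Ppp1r15b that undo eIF2 phosphorylation, 0 of 7 genes passed in any comparison (limma). Over all genes tested, 4.31% passed with ivermectin, 2.26% with importazole and 3.42% between the compounds. Ppp1r15a was at 15.6 ± 1.34 FPKM with vehicle, 15.6 ± 1.01 FPKM with ivermectin and 16.5 ± 0.898 FPKM with importazole. Among 6 tested transcripts that are translated or induced when eIF2 is phosphorylated (Atf4, Atf5, Ddit3, Trib3, Asns and Sesn2), all 6 rose with ivermectin, by a median of 1.10, and all 6 with importazole, by a median of 0.96. This list was chosen with its rise in these libraries already known and is not independent evidence of it. Chac1, also on the list, did not pass the filter on low values. Atf4 was at 79.7 ± 6.26 FPKM with vehicle, 156 ± 10.2 FPKM with ivermectin and 153 ± 8.81 FPKM with importazole. Trib3, a pseudokinase gene, was higher with ivermectin than with importazole, at 51.6 ± 1.05 FPKM against 39.8 ± 1.97 FPKM, a difference of 0.37 (limma adjusted p = 0.0117). That call ended when importazole 2 or 3 was left out (limma adjusted p from 0.0512 to 0.0634), with limma adjusted p from 0.00671 to 0.0634 over 20 alternatives.

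Of 18 other regulators of eIF4F, Mknk1 and Pabpc1 rose with ivermectin and Mknk1 with importazole. Between the compounds, Mknk1 was higher and Akt1s1 lower with ivermectin. The shares that passed over all genes tested were 4.31% with ivermectin, 2.26% with importazole and 3.42% between the compounds. Mknk1 encodes a kinase that phosphorylates eIF4E. It stood at 12.8, 11.5 and 12.5 FPKM with vehicle, at 18.9, 18.6 and 19.7 FPKM with ivermectin, and at 15.99, 15.7 and 14.6 FPKM with importazole. Values did not overlap between any of the groups. The difference from vehicle was 0.60 with ivermectin (limma adjusted p = 0.000596, past the threshold in all 20 alternatives) and 0.31 with importazole (limma adjusted p = 0.0459). Ivermectin exceeded importazole by 0.29 (limma adjusted p = 0.0498). The importazole call ended when vehicle 1, 2 or 3, ivermectin 1 or 2, or importazole 1, 2 or 3 was left out (limma adjusted p from 0.0638 to 0.173), and with no filter, with quantile normalization, with median-of-ratios scaling, in the fit to the 6 libraries compared and without the pair of libraries listing Yam1 at 0 (limma adjusted p from 0.0354 to 0.173 over 20 alternatives). The direct call ended when vehicle 1, 2 or 3, ivermectin 1, 2 or 3, or importazole 1, 2 or 3 was left out (limma adjusted p from 0.0544 to 0.158), and with a pseudocount of 0.1 FPKM, with a pseudocount of 0.5 FPKM, with no filter, in the fit to the 6 libraries compared and without the pair of libraries listing Yam1 at 0 (limma adjusted p from 0.0152 to 0.158 over 20 alternatives).

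Pabpc1, the poly(A)-binding protein gene, was at 271, 264 and 269 FPKM with vehicle, at 296, 354 and 373 FPKM with ivermectin, and at 341, 330.1 and 354 FPKM with importazole. All treated values exceeded all vehicle values. The difference was 0.34 with ivermectin (limma adjusted p = 0.0399) and 0.35 with importazole (limma adjusted p = 0.0516). The ivermectin call ended when vehicle 1, 2 or 3, ivermectin 2 or 3, or importazole 1, 2 or 3 was left out (limma adjusted p from 0.0604 to 0.126), and with no filter, in the fit to the 6 libraries compared and without the pair of libraries listing Yam1 at 0 (limma adjusted p from 0.00442 to 0.213 over 20 alternatives). Akt1s1, which encodes an inhibitory partner of mTORC1, was at 35.8, 26.8 and 25.1 FPKM with vehicle, at 22.5, 24.4 and 25.1 FPKM with ivermectin, and at 32.98, 34.2 and 35.6 FPKM with importazole. It was lower in every ivermectin than in every importazole library, a difference of -0.50 (limma adjusted p = 0.0394). That call ended when vehicle 2, ivermectin 1, 2 or 3, or importazole 1, 2 or 3 was left out (limma adjusted p from 0.0545 to 0.128), and with no filter and without the pair of libraries listing Yam1 at 0 (limma adjusted p from 0.00364 to 0.137 over 20 alternatives).

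Of 11 elongation genes Eef2k passed, with ivermectin against vehicle, and the other 10 did not pass in any comparison. It encodes the kinase that inhibits elongation factor eEF2, and stood at 5.09, 4.97 and 4.93 FPKM with vehicle, at 7.61, 8.84 and 6.78 FPKM with ivermectin, and at 6.095, 7.02 and 5.88 FPKM with importazole. The ivermectin libraries were above those with vehicle, a difference of 0.54 (limma adjusted p = 0.0137). That call ended when vehicle 2 was left out (limma adjusted p = 0.0511), and with no filter (limma adjusted p from 0.00943 to 0.0511 over 20 alternatives). Every importazole library of Eef2k also lay above every vehicle library, but that difference, 0.29, did not pass (limma adjusted p = 0.184). The difference of Eef2k between ivermectin and importazole, 0.25, did not pass either (limma adjusted p = 0.204). Of 6 tested genes of termination, recycling and reinitiation, 0 passed in any comparison (limma). This stands against 4.31% of all genes tested with ivermectin, 2.26% with importazole and 3.42% between the compounds. Gspt2, of the same list, did not pass the filter on low values.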

How the data were processed

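RNA of HL-1 cells was captured as mRNA and read in 9 libraries on the Ion Proton, per the labels' protocols. The authors deposited FPKM per gene symbol. STAR, Bowtie2, Bowtie and Cufflinks, without version or role, and the builds mm10 and GRCm38 are named in the submitters' processing notes. The sources used here do not give the annotation, strand setting or filters. FPKM is relative to the whole library, so an abundant transcript missing from 1 library can raise its other values.

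Values of 48 repeated symbols (0 of them initiation genes) were summed. Genes at 1 FPKM or more in at least 3 libraries were kept, and log2(FPKM + 1) was fitted with limma 3.58.1 in R 4.3.3, group as the only term, with trend and robust moderation, on all 9 libraries and 11337 genes. Adjusted p-values (Benjamini-Hochberg) are over all these genes and two-sided, and 95% intervals are unadjusted. The fit was run on simulated data, drawn as normal values around the gene means with limma's own moderated spread. Such data meet the assumptions of limma, so the run does not test whether these libraries do. Positions, overlaps and shared 50-base stretches came from GENCODE M21, in which all 52 symbols matched 1 gene each, and promoters from RefSeq. Tables and figures used Python 3.11.15, pandas 2.3.3 and matplotlib 3.10.9.

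The initiation genes, lists, motifs, alternatives and rule for named genes were chosen with earlier results of these data known. By that rule values are given for genes past the threshold, the 3 largest differences of each comparison, the kinases, the binding proteins and core factors whatever their result, and up to 4 genes past the threshold per list. Eif1, Eif2b2, Eif2s3x, Eif3d, Eif3e, Eif4b and Ppp1r15a were added after their values were seen. Alternatives were pseudocounts of 0.1 and 0.5, no filter, a 5 FPKM filter, quantile and median-of-ratios scaling, a fit to the 6 libraries compared, a block for replicate number, each library left out, the pair that lists Yam1 at 0 left out, non-robust moderation and the largest value of repeated symbols.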

Additional observations from a re-analysis of the deposited data

How the results depend on the processing

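The number of initiation genes past the threshold against vehicle depended on the processing, while the number between the compounds was 0 in all 20 alternatives. With ivermectin it was 4, and it was 2 with no filter, 2 without the pair of libraries listing Yam1 at 0, and 2 to 4 when each library was left out. It was 5 with a 5 FPKM filter and 5 with median-of-ratios scaling, both adding Eif5, and 6 with quantile normalization, adding Eif3d and Eif5. With importazole it was 5, and it was 1 with no filter, 2 without that pair, and 1 to 5 when each library was left out. With no filter more genes are tested, and without libraries fewer samples remain. Over all genes tested the counts of 489, 256 and 388 (ivermectin with vehicle, importazole with vehicle, ivermectin with importazole) became 211, 133 and 177 with no filter, 195, 161 and 233 without that pair, and 243 to 399, 128 to 320 and 177 to 396 when each library was left out. The first became 274 in the fit to the 6 libraries compared. The split of higher to lower genes over all genes tested with importazole was 192 to 64, and 159 to 117 after quantile normalization or 162 to 118 after median-of-ratios scaling. Between the compounds it was 81 to 307, and 191 to 274 or 139 to 282. Through the 20 alternatives 24 calls were followed, each a gene past the threshold in 1 comparison, and 0 changed sign. Many alternatives could not change a sign, because they leave the difference of these genes as it was and alter only its p-value. These are the filters, the fit to the 6 libraries compared, the block, non-robust moderation and the largest value of repeated symbols. Leaving out a library of the group not compared is another. Some differences that did not pass did change sign, among them those of Eif1b and Atf4 between the compounds. Ddit3 and Sesn2 were not followed in this way. Depth is unknown, so no counting error can be given.

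Correlations between libraries gave no clear sign that the replicate numbers pair them, though such a check may miss a weak pairing. Deviations from the group means correlated above 0.1 in 1 of 9 same-numbered pairs (-0.21 to 0.14) and in 3 of 18 others (-0.22 to 0.31). The highest correlation, 0.31, was between vehicle 2 and ivermectin 3, the pair of libraries listing Yam1 at 0. Whether these 2 libraries share a technical origin was not tested. With the replicate number as a block, 4 initiation genes passed with ivermectin and 2 with importazole, without Eif1b, Eif3a and Eif4ebp1, and the cause was not tested. Among the other genes named, the block also ended the calls of Mknk1 with importazole (limma adjusted p = 0.087) and between the compounds (limma adjusted p = 0.0888), Pabpc1 with ivermectin (limma adjusted p = 0.0641) and Akt1s1 between the compounds (limma adjusted p = 0.0844). Over all genes tested the block gave 257 genes between the compounds.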

Other observations

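Pseudogene copies of initiation genes, which the choice of genes left out, were listed with signal of their own. Eif4a-ps4 was at 94.4 ± 3.76 FPKM with vehicle, 104 ± 11.6 FPKM with ivermectin and 96.4 ± 8.47 FPKM with importazole (mean ± SD, n = 3). Eif5al3-ps ranged from 17.2 to 32.4 FPKM over the 9 libraries, Eif1-ps1 from 1.17 to 4.44 FPKM and Eif3s6-ps1 from 2.58 to 5.91 FPKM. The highest values of Eif3s6-ps1, Eif3s6-ps2, Eif4a-ps4 and Eif5al3-ps were all in ivermectin 3. Among the 52 initiation genes, vehicle 2 held the lowest of the 9 values for 16 and vehicle 3 for 13, counts not made over all genes tested.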
